A study of Mus musculus with 4 samples.

Results

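The mammalian circadian clock and its direct output genes were described as a set of 29 genes in interscapular brown adipose tissue (iBAT) and epididymal white adipose tissue (eWAT) of wild-type (WT) and ASK1-deficient mice. Members were the genes on a list of 30 names, of which Gm129 and Ciart are the same gene, whose probes carry that name in the array files. They held 45 of the 55681 probes and were 29 of the 22066 genes that could be matched to RefSeq. The list covers the transcriptional activators, their repressors, the nuclear receptors of the second loop, the D-box factors, enzymes of clock protein turnover and a few output or modifying genes.

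ASK1 (Map3k5) is a stress-activated MAP kinase kinase kinase, and the study asked what it does in adipose tissue. Labelled RNA was hybridised to 4 one-colour arrays, 1 for each of WT iBAT, ASK1-deficient iBAT (labelled ASK1KO), WT eWAT and ASK1-deficient eWAT, under normal conditions and without treatment. The RNA of an array was a pool from 3 males, all 10 weeks old. The mice were of the C57BL/6J strain, the deficiency was in the whole body, and WT and ASK1-deficient mice were bred separately rather than as littermates. The sources used here give neither the hour at which tissue was taken nor whether the iBAT and eWAT pools came from the same mice, and the part of the hour in the ratios given here was not tested. No condition had a replicate array, so variation between mice could not be measured and a difference within a depot carries no test. Fewer cells of a type and less RNA per cell cannot be told apart in bulk tissue.

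The clock is a transcriptional feedback loop. BMAL1 (Arntl) and CLOCK, or its relative NPAS2, bind E-boxes and drive Per, Cry, Nr1d1, Nr1d2, Dbp and Ciart, and the PER and CRY proteins then return to repress their own transcription. REV-ERBα (Nr1d1) and REV-ERBβ (Nr1d2) repress Arntl through RORE sites where the ROR receptors activate it, and DBP, TEF and HLF activate D-box genes that NFIL3 represses. In peripheral tissues, adipose depots included, Arntl transcripts run roughly in antiphase to those of Nr1d1 and Dbp, so that a tissue taken at one hour shows a single point of the cycle.

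Promoter sequences are shown for 6 members whose windows hold the element that gives this loop its wiring. RefSeq promoters, 250 bases before to 50 after a gene's start in GRCm38.p6, were at hand for 24 of the 29 members, with 33 promoters in all, and were searched on both strands. Bhlhe40, Btrc, Csnk1d, Per2 and Wee1 had none in the table. Each sequence runs 5′ to 3′ on the gene's strand, and capitals mark the motif match. The first is the RORE of Arntl (chr7:113207528-113207557, plus strand), the next holds an E′-box of Nr1d1 (chr11:98775378-98775457, minus strand), and Per1 holds a canonical E-box (chr11:69098749-69098828, plus strand). Ciart holds 3 E-boxes (chr3:95882259-95882358, minus strand), Cry1 an E′-box beside an E-box (chr10:85185085-85185154, minus strand) and Per3 a pair of D-boxes (chr4:151044801-151044885, minus strand).
Arntl: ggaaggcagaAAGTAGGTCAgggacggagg
Nr1d1: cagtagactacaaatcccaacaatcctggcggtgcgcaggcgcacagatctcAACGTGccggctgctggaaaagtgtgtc
Per1: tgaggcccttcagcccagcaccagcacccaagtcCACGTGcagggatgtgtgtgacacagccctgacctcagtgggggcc
Ciart: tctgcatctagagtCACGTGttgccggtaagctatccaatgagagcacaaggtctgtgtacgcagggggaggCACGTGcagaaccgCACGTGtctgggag
Cry1: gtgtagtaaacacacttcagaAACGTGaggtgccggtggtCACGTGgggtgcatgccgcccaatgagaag
Per3: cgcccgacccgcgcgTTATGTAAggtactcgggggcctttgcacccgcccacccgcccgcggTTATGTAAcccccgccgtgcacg

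The E-box CACGTG was found in 7 of the 33 member promoters (21.2%), those of Bhlhe41, Ciart, Cry1, Per1, Sirt1 and Tef, and in 7.15% of all 32851 promoters. The E′-box CACGTT, which reads AACGTG on the other strand, was in 4 member promoters (12.1%; Cry1, Cry2, Nr1d1 and Rorb) and in 4.68% of all. A D-box, TTATGTAA or TTACGTAA, was in the promoters of Per3 and Timeless (6.06%) and in 1.06% of all. The RORE, AAN followed by TAGGTCA or TGGGTCA, was in 1 promoter of Arntl (3.03%) and in 0.435% of all. The cAMP response element TGACGTCA was in 1 promoter of Hlf (3.03%) and in 1.79% of all. These matches describe the letters of the windows. They are neither evidence of binding nor linked to the values below.

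For each array the processed intensity was taken on the log2 scale after subtraction of the array's 75th percentile, and a log2 ratio is the difference between the scaled values of 2 arrays. Probes of a gene were averaged where both arrays of the pair gave a signal well above background. Between 28985 and 33389 probes were well above background on an array, and the 75th percentile of the signal was 356 and 371 on the WT and ASK1-deficient iBAT arrays and 673 and 634 on the eWAT arrays. Of the clock probes, 39 of 45 passed on all 4 arrays, which left 27 genes with a value in every comparison. The 2 others were Npas2 and Fbxl21. Every clock probe was spotted once, so that its own technical spread is not known. Over the 276 probes with 5 or more usable spots on both iBAT arrays the median SD of the log2 ratio was 0.087, and over 292 such probes in eWAT it was 0.060. The targeted gene was lower in both depots at 1 of its 2 probes, with signals of 448.0 (WT) and 117 (ASK1-deficient) in iBAT and of 701 and 194 in eWAT. At the other probe the signals were 1081 and 1082 in iBAT, and 1264 and 836 in eWAT, where it was lower too (log2 ratio −0.51). Brown adipocyte markers had a summed scaled signal of 3910 and 3275 on the WT and ASK1-deficient iBAT arrays and of 56.0 and 24.1 on the eWAT arrays, whereas epididymis markers were not well above background on any array.

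Nearly all clock genes were less than 2-fold apart between the genotypes. The exception was Bhlhe40, lower by 2-fold or more in ASK1-deficient iBAT, and 0 members were at least 2-fold higher there. Both statements depend on the scaling, since Bhlhe40 (−1.01) and Nr1d1 (0.96) lie on either side close to the threshold. The call of Bhlhe40 was lost with normexp (−0.81), quantile normalization (−0.99), cyclic loess (−0.95), no scaling (−0.94) and the percentile over detected probes (−0.90), and in the last 3 of these Nr1d1 was at least 2-fold higher instead (1.03, 1.02 and 1.06). Of all 14377 genes measured in iBAT, 0.835% were higher and 1.02% lower by that much (1.85% in all). In eWAT 0 of the 28 measured members were at least 2-fold apart, against 1.15% of 15377 genes (0.286% higher and 0.865% lower). That count depends on the scaling too, since Arntl (−0.99) lies close to the threshold. It was past it with cyclic loess (−1.02), no scaling (−1.08) and the percentile over detected probes (−1.02). The median log2 ratio of the members was 0.05 in iBAT and 0.13 in eWAT, beside −0.07 and 0.02 over all genes. In iBAT 15 members had a log2 ratio above 0 and 12 below, beside 5820 and 8557 of all genes. In eWAT 18 were above and 10 below, beside 8318 and 7059 of all genes. The split in iBAT depends on the scaling: it was 12 and 15 with median centring and 18 and 9 with the percentile over detected probes.

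**Figure D1:**
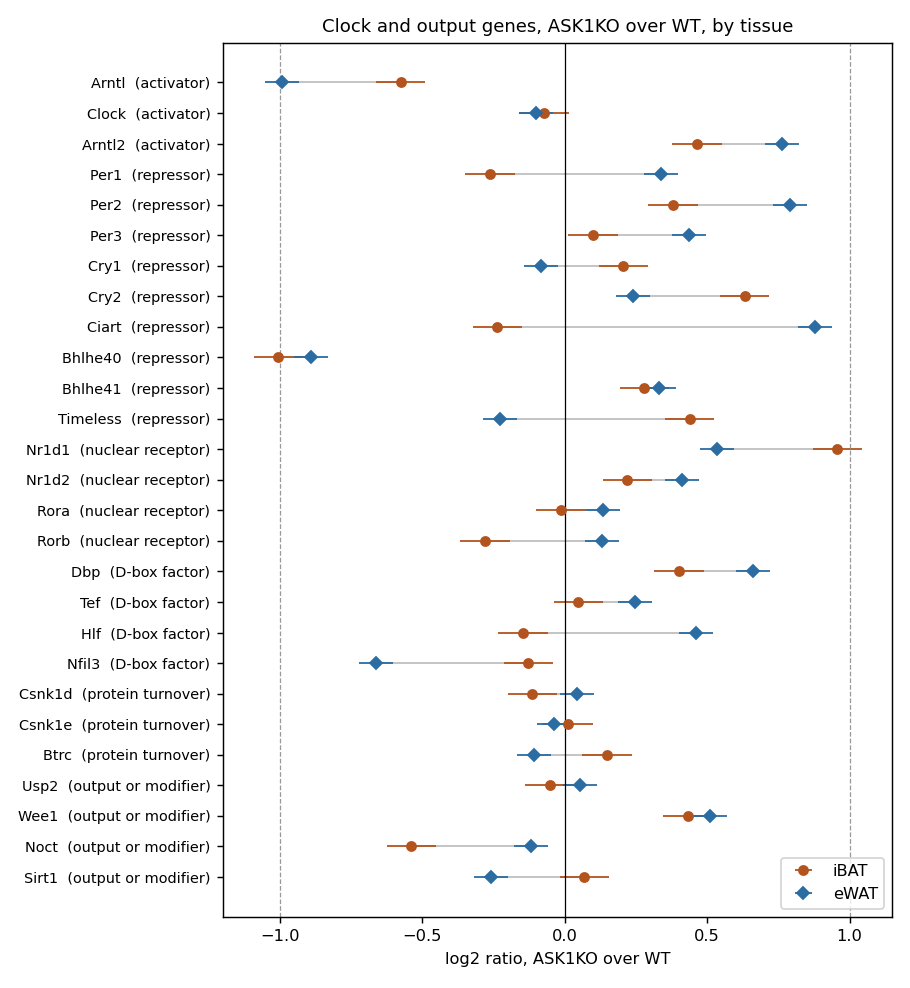
Log2 ratio of ASK1KO over WT for the 27 clock and output genes measured in both tissues, in iBAT (circles) and eWAT (diamonds), in order of their role. Horizontal bars are ± 1 median SD over replicate spots of other probes (0.087 in iBAT, 0.060 in eWAT) and leave out the spread between mice. Dashed lines mark 2-fold. Arntl and Bhlhe40 hold the lowest values of each tissue, and Nr1d1, Dbp, Per2, Cry2, Arntl2 and Wee1 lie to the right of 0 in both.

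Arntl, the activator without which the clock stops, was lower in ASK1-deficient mice in both depots. Its probe (mm9, chr7:120457261-120457320, plus strand) gave signals of 257 and 180 on the WT and ASK1-deficient iBAT arrays and of 752 and 356 on the eWAT arrays. Paired signals are given in that order, WT first, from here on. The ASK1-deficient array was the lower of each tissue. The log2 ratio was −0.58 (iBAT) and −0.99 (eWAT), just short of 2-fold in eWAT. Its partner Clock was close to equal between genotypes, with signals of 698 and 692 in iBAT and 1514 and 1328 in eWAT and log2 ratios of −0.07 and −0.10. Npas2, which can replace Clock, was not well above background on any array.

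Arntl2, the paralog of Arntl, stood on the other side. Its brightest probe gave 623 and 801 in iBAT and 674 and 1029 in eWAT, and a dimmer one gave 28.7 and 46.2 in iBAT and 20.9 and 35.0 in eWAT. Both probes were higher on the ASK1-deficient array of each tissue, and the gene's log2 ratio was 0.46 (iBAT) and 0.76 (eWAT). The remaining probe was well above background on the ASK1-deficient arrays only, which put it at least 1.15-fold higher in iBAT and at least 1.76-fold higher in eWAT.

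The E-box-driven repressors did not move as a block. Per2 gave 293 and 398 in iBAT and 213 and 347 in eWAT (mm9, chr1:93313046-93313105, minus strand), log2 ratios of 0.38 and 0.79. Both ASK1-deficient arrays were above the WT array of their tissue. Per3 gave 123 and 137 in iBAT and 263 and 335 in eWAT, log2 ratios of 0.10 and 0.44.

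Per1, which responds to hormones and cAMP as well as to the clock, differed between the depots. Its main probe gave 8502 and 7643 in iBAT but 11181 and 13304 in eWAT, log2 ratios of −0.22 and 0.34. The other probe, well above background in iBAT alone, gave 53.8 and 45.3, which made the gene's iBAT value −0.26. Ciart, a repressor of BMAL1 and CLOCK whose promoter holds the 3 E-boxes shown above, gave 93.6 and 82.9 in iBAT and 63.8 and 110 in eWAT. Its log2 ratio was −0.24 (iBAT) and 0.88 (eWAT), and with normexp the eWAT value was 0.54.

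Among the cryptochromes, Cry1 was dim, at 40.0 and 48.2 in iBAT and 39.2 and 34.8 in eWAT, with log2 ratios of 0.21 and −0.08. Cry2 has 2 probes that differed in size. One gave 322 and 680 in iBAT and 1012 and 1336 in eWAT, log2 ratios of 1.02 and 0.49. The brighter one gave 3374 and 4178 in iBAT and 13322 and 12482 in eWAT, log2 ratios of 0.25 and −0.01. The gene's mean of 0.63 and 0.24 therefore rests mostly on the dimmer probe.

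Bhlhe40 (DEC1), a repressor that competes with BMAL1 and CLOCK at E-boxes and that also responds to stress signals and hypoxia, was lower in the ASK1-deficient array of both tissues. Its probe (mm9, chr6:108616309-108616368, plus strand) gave 639 and 332 in iBAT and 1105 and 561 in eWAT. The log2 ratio was −1.01 and −0.89, and the ASK1-deficient level was 0.50 times that of WT in iBAT and 0.54 times in eWAT. Its paralog Bhlhe41 (DEC2) did not follow: one probe gave 35.4 and 46.9 in iBAT and 46.5 and 65.2 in eWAT, and the other 24.2 and 29.4 and 68.9 and 68.8. Timeless, which in mammals serves mainly in DNA replication, gave log2 ratios of 0.44 and 0.44 at its 2 probes in iBAT and of −0.19 and −0.26 in eWAT.

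The nuclear receptor Nr1d1 was on the side opposite to Arntl, the gene it represses. It gave 632 and 1280 in iBAT and 1756 and 2393 in eWAT, so that each ASK1-deficient array was above its WT array. The log2 ratio was 0.96 (iBAT) and 0.53 (eWAT). Nr1d2 was measured by a probe on chromosome 14, with log2 ratios of 0.25 and 0.53, and by another that the files place on chromosome 19, with 0.19 and 0.29. Rora and Rorb, which act on the same sites as activators, had gene values of −0.01 and −0.28 in iBAT and 0.13 and 0.13 in eWAT.

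Dbp, the output gene most directly driven by BMAL1 and CLOCK, had 2 probes that moved alike. At the first (mm9, chr7:52965461-52965520, plus strand) the signals were 7421 and 10432 in iBAT and 13332 and 21312 in eWAT. At the second they were 7198 and 9714 in iBAT and 16585 and 23002 in eWAT. The ASK1-deficient array was the higher in all 4 pairs, and the gene's log2 ratio was 0.40 (iBAT) and 0.66 (eWAT). Of the other D-box activators, Tef gave log2 ratios of 0.05 and 0.25 and Hlf of −0.15 and 0.46. The repressor Nfil3 (E4BP4) gave 2132 and 2035 in iBAT and 1559 and 927 in eWAT, log2 ratios of −0.13 and −0.66. In eWAT the 3 activators were thus above 0 and the repressor below.

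The enzymes that set the stability of clock proteins differed little. Csnk1d, Csnk1e and Btrc, casein kinases and a ubiquitin ligase subunit for PER, lay between −0.11 and 0.15 in iBAT and between −0.11 and 0.04 in eWAT, although the 2 probes of Btrc gave 0.50 and −0.20 in iBAT. Fbxl21, a ubiquitin ligase subunit for CRY, was near the detection limit and gave 41.1 and 42.4 at its brighter probe in eWAT.

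Wee1, a cell cycle kinase under E-box control, was higher in both depots, with 137 and 193 in iBAT and 252 and 338 in eWAT (log2 ratios of 0.43 and 0.51). The deubiquitinase gene Usp2 was close to equal, at 1825 and 1836 in iBAT and 1002 and 979 in eWAT. Sirt1, a deacetylase that acts on clock proteins, gave log2 ratios of 0.07 and −0.26. Noct, a rhythmic deadenylase-like protein, gave opposite signs at its 2 probes in iBAT. At one the signals were 16233 and 7142 (log2 ratio −1.25), and at the other 6362 and 7463 (0.17). The gene's mean of −0.54 describes neither probe.

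**Figure D2:**
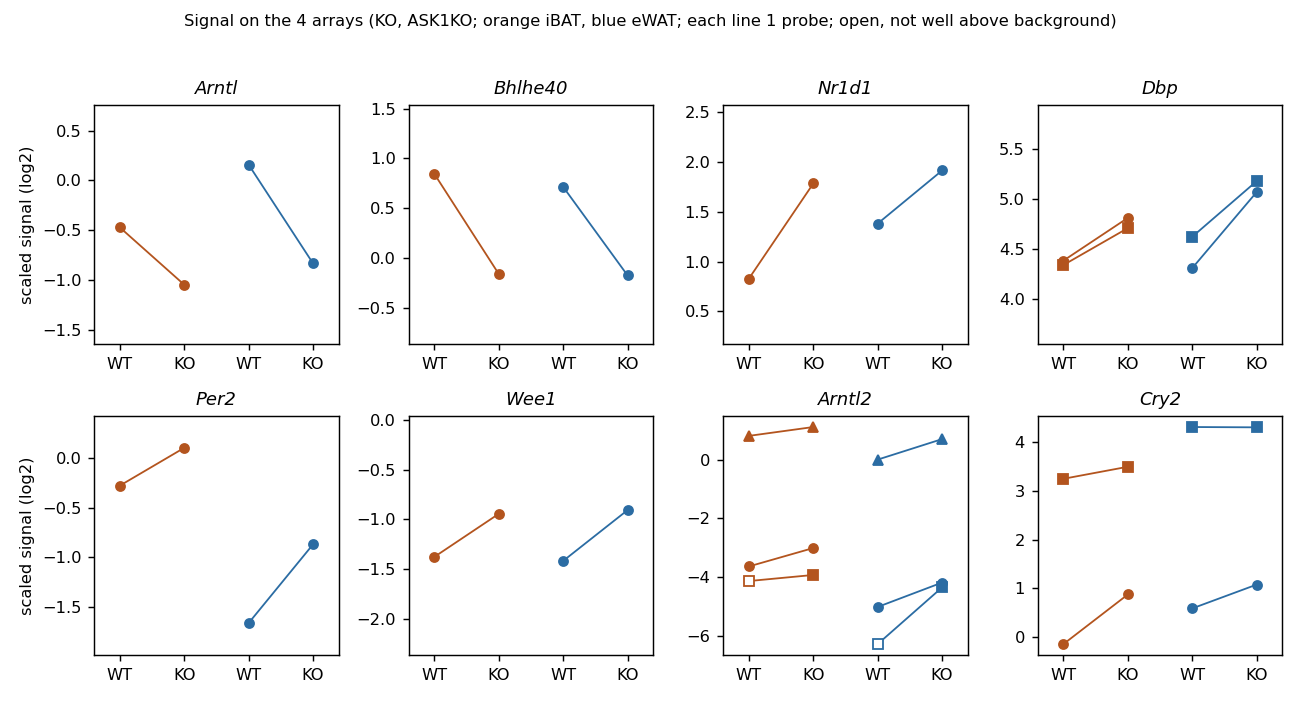
Scaled signal on the log2 scale (signal over the 75th percentile of its array) on the 4 arrays for the 8 members with an unadjusted p under 0.05 for genotype in the limma fit. Each line joins WT and ASK1KO (KO) for 1 probe in iBAT (orange) or eWAT (blue), open symbols were not well above background, and each point is 1 array of a pool of 3 mice. The lines of Arntl and Bhlhe40 slope down and those of Nr1d1, Dbp, Per2, Wee1 and Arntl2 slope up in both depots, whereas the brighter probe of Cry2 is level in eWAT.

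A constant error of scale shifts all genes of an array alike and leaves the differences between genes as they are. That does not hold for errors that depend on intensity, nor for variation between pools. With normexp the eWAT ratio of Arntl moved from −0.99 to −0.90 and that of Per2 from 0.79 to 0.60. The log2 ratio of Nr1d1 exceeded that of Arntl by 1.53 in iBAT and by 1.53 in eWAT. The excess of Dbp over Arntl was 0.98 in iBAT and 1.65 in eWAT, and that of Per2 over Arntl was 0.96 and 1.78.

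A limma model with a term for genotype and a term for tissue was applied to all 4 arrays. It assumes that the effect of genotype is the same in each depot, and 1 residual degree of freedom is left. That degree of freedom is the difference between the depots in the genotype effect. The SEs and p-values of the fit therefore do not measure variation between mice. Of 14057 genes, 0 passed a Benjamini-Hochberg adjusted p of 0.05 for genotype and 770 (5.48%) had an unadjusted p below it. Among the 27 members fitted, 8 (29.6%) had such an unadjusted p and 0 passed the adjustment. Arntl2, Per2, Cry2, Nr1d1, Dbp and Wee1 were those on the higher side, where the share of all genes was 2.68%, and Arntl and Bhlhe40 those on the lower, where it was 2.8%. For Bhlhe40 the limma estimate was −0.95 (SE 0.15, unadjusted p 0.00056, adjusted p 0.40). The limma estimate for Arntl was −0.78 (SE 0.17, adjusted p 0.52), and that for Nr1d1 was 0.75 (SE 0.17, adjusted p 0.57). Adjusted p-values of the other 5 members lay between 0.65 and 0.88 in the limma fit. None of these genotype differences is therefore established against the spread of this fit. The call of Bhlhe40 depended on the setting: it passed with normexp, median centring and the series table, where 24, 139 and 128 of all genes did.

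The genotype ratios of iBAT and eWAT come from different arrays. Across the 27 members, 10 were above 0 in both tissues, 5 below 0 in both and 12 on opposite sides, so that 55.6% had the same sign, against 49.4% of 14059 genes. Pearson's r between the log2 ratios of the depots was 0.59 and Spearman's rho 0.45 over the members. Over all genes Pearson's r was 0.016 and Spearman's rho 0.060. These are descriptions across genes, which are not independent replicates. The members share the arrays, the pools and, within the loop, their regulators.

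Markers of other cells also differed between these arrays. In ASK1-deficient iBAT all 7 measured macrophage markers of 8 were above WT, with a median log2 ratio of 0.58 and summed scaled signals of 6.56 and 8.96. The macrophage sums of eWAT were 46.0 and 44.1. Hepatocyte markers summed to 21.5 in WT eWAT, where 11 of 11 were well above background, and to 1.57 in ASK1-deficient eWAT, with values of 3.25 and 4.12 in iBAT. Skeletal muscle markers summed to 566 and 572 in iBAT and to 11.3 and 7.61 in eWAT. The part of these cells in the ratios of the clock genes was not tested.

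Further genes linked to the clock were examined as lists, drawn up with earlier results of these data known. The first held 25 accessory components, such as kinases, ubiquitin ligase subunits and cofactors that act on the loop but are mostly not rhythmic themselves. None of the 25 was at least 2-fold apart between genotypes in either tissue, where 1.85% of all genes were so in iBAT and 1.15% in eWAT. Their log2 ratios lay between −0.47 and 0.27 in iBAT and between −0.25 and 0.18 in eWAT. In iBAT 22 of the 25 were below 0 (median −0.23), beside 8557 of the 14377 genes measured (median −0.07). In eWAT 19 were above 0 (median 0.06), beside 8318 of 15377 (median 0.02). The limma fit gave 0 of 25 an unadjusted p under 0.05 for genotype.

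The other list held 25 genes known to cycle in peripheral tissues, of which 24 were measured. At the 2-fold threshold 3 were higher and 0 lower in ASK1-deficient iBAT, where 0.835% of all genes were higher and 1.02% lower. In eWAT 0 were 2-fold apart, against 1.15% of all genes. Zbtb16, a zinc-finger factor, gave 1106 and 5400 in iBAT and 9210 and 16474 in eWAT (log2 ratios of 2.23 and 0.93). Fkbp5, a co-chaperone of the glucocorticoid receptor, gave 594 and 1926 in iBAT and 7944 and 11497 in eWAT (1.64 and 0.62). Mthfd1l, a mitochondrial folate enzyme, was dim in iBAT, at 26.3 and 84.2 for the probe of its 2 that was measured on all arrays. Its log2 ratios were 1.62 and 0.37, and the call in iBAT was lost with normexp (0.70).

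The median of this list was nevertheless −0.25 in iBAT, with 8 genes above 0 and 16 below, and 0.08 in eWAT. Of all genes 5820 were above 0 and 8557 below in iBAT (median −0.07), and the median in eWAT was 0.02. In the limma fit 7 of the 24 (29.2%) had an unadjusted p under 0.05 for genotype, against the 5.48% of all genes given above, and 0 passed the adjustment. Since earlier results were known when the list was drawn up, this share is a description only. The 6 on the higher side were Zbtb16, Fkbp5, Mthfd1l, Cirbp, Tspan4 and Tsc22d3, and Lonrf3 was the one on the lower side. Cirbp, a cold-inducible RNA-binding protein, had log2 ratios of 0.73 and 0.29, and Lonrf3 of −0.33 and −0.63.

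**Figure D3:**
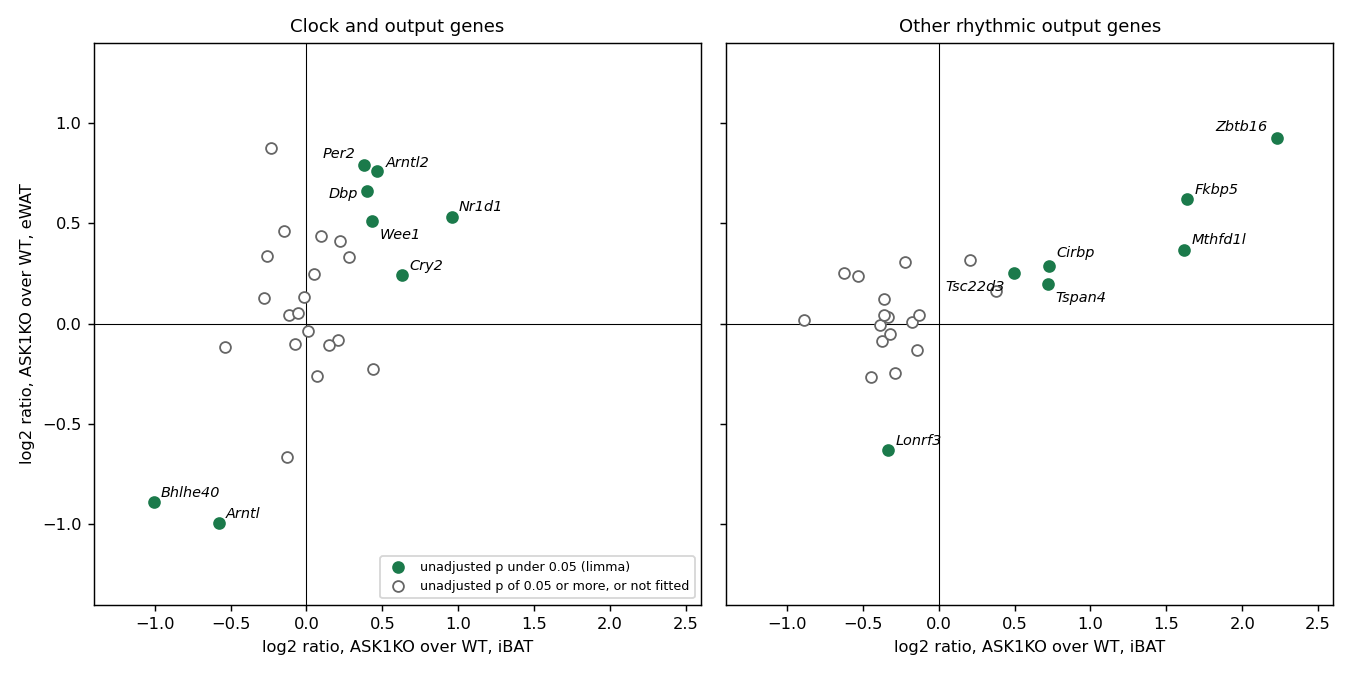
Log2 ratio of ASK1KO over WT in iBAT (horizontal) and eWAT (vertical), 1 point a gene, for the clock and output genes (left) and the other rhythmic output genes (right). Filled points had an unadjusted p under 0.05 for genotype in the limma fit, which favours genes alike in both tissues by its construction, and 0 genes passed the adjustment. Arntl and Bhlhe40 lie at the lower left, and Zbtb16, Fkbp5 and Mthfd1l lie furthest to the right.

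Between the depots the clock genes differed more than between the genotypes, as did genes as a whole. Of all genes 29.8% (WT) and 25% (ASK1-deficient) were at least 2-fold apart between the depots. Between the genotypes 1.85% (iBAT) and 1.15% (eWAT) were. Among the members, 8 were at least 2-fold higher in iBAT than in eWAT of WT mice and 0 at least 2-fold lower, where 16.4% of 14236 genes were higher and 13.4% lower (29.8% in all). The split turned without scaling between arrays, to 2 higher and 9 lower, and was 6 and 2 with the brightest probe of each gene. In ASK1-deficient mice 5 of 27 members were at least 2-fold higher and 0 lower, beside 12.3% and 12.6% of 14513 genes (25% in all), and without scaling 2 were higher and 5 lower. The comparisons share no array. Their median log2 ratio was 0.09 in WT and −0.03 in ASK1-deficient mice, and that of all genes 0.12 and 0.03.

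In the limma fit 12 of the 27 members passed the adjusted p of 0.05 for tissue, 10 higher and 2 lower in iBAT, against 55.5% of all genes (30.8% higher and 24.6% lower). The members' share, 44.4%, was thus below that of all genes. Here too the SEs and p-values rest on the difference between the depots in the genotype effect. They do not measure variation between mice. Hlf was highest, with 1227 and 1157 in iBAT and 429 and 555 in eWAT. Every iBAT signal lay above every eWAT signal although the eWAT arrays were brighter as a whole, and the limma estimate was 2.13 (SE 0.19, adjusted p 0.00025). Usp2 gave 1825 and 1836 in iBAT against 1002 and 979 in eWAT, an estimate of 1.73 (SE 0.15, adjusted p 0.00021 in limma). The estimates for Nfil3 and Rorb were 1.64 and 1.71.

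Per2 was also higher in iBAT in both genotypes (log2 ratios of 1.38 and 0.97, limma adjusted p 0.0016), as were Cry1 (0.95 and 1.24), Arntl2 (1.09 and 0.67), Ciart (1.47 and 0.36) and Timeless (0.24 and 0.91), although without scaling between arrays Timeless turned to −0.68 in WT and Arntl2 and Ciart to −0.10 and −0.41 in ASK1-deficient mice, and none of these 5 genes passed. The call of Ciart was also lost with cyclic loess and with the percentile over detected probes, and that of Timeless with these, with median centring and with the brightest probe. Rora was lower in iBAT (−0.85 and −0.996, limma adjusted p 0.0027), and so was Cry2 (−0.90 and −0.51). Noct passed at its mean of 1.25 and 0.83, but not without scaling or with its brightest probe, and 1 probe gave 2.88 and 1.81 and the other −0.38 and −0.16. The second, iBAT-detected probes of Per1 and Rorb were not well above background in eWAT, which put them at least 5.39-fold and 5.67-fold higher in WT iBAT. These bounds hold after scaling between arrays and concern dim probes, with signals of 53.8 and 56.6 in WT iBAT. The main probe of Per1 was 1.44-fold in WT and 0.98-fold in ASK1-deficient mice, and that of Rorb 3.95-fold and 2.70-fold.

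Arntl, Nr1d1, Dbp, Tef and Per1, by contrast, did not pass the adjusted p for tissue in limma. That held for Arntl and Per1 in every setting but that without scaling, in which all 5 passed. Dbp also passed with normexp, quantile normalization and cyclic loess, Nr1d1 with normexp and Tef with quantile normalization. The log2 ratio of Arntl was −0.63 in WT and −0.21 in ASK1-deficient mice, that of Nr1d1 −0.55 and −0.13 and that of Dbp −0.10 and −0.37. The muscle and macrophage sums given above differed strongly between the depots, and their part in these ratios was not tested.

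**Figure D4:**
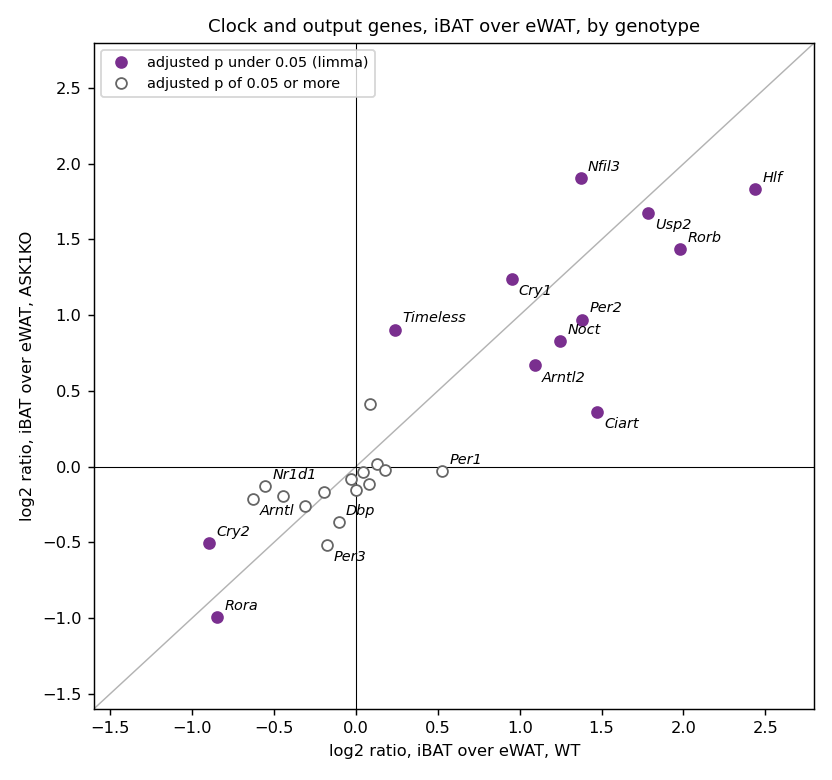
Log2 ratio of iBAT over eWAT in WT (horizontal) and ASK1KO (vertical) mice for the 27 clock and output genes measured on all 4 arrays, with the line of equality. Filled points passed an adjusted p of 0.05 for tissue in the limma fit. Hlf, Rorb, Usp2 and Nfil3 lie at the upper right, Rora and Cry2 at the lower left, and Arntl, Nr1d1 and Dbp near the centre.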

How the data were processed

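Gene expression was measured on Agilent Whole Mouse Genome 8 × 60K arrays. The authors deposited the Feature Extraction (version 10.7.3.1) output of each array, whose processed signal is a linear intensity with the spatial background trend removed, dim spots replaced by surrogates and no scaling between arrays. The series table the authors deposited is a linear signal, which equals the processed signal divided by 1 constant per array that sets its median to 1. Probe positions are those of the files (mm9), and exons were not assigned, since no mm9 genome was used. The 4 arrays lay on 1 slide, and no spot was saturated.

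Control spots and outlier-flagged spots were left out, log2 was taken, spots of a probe were averaged and the array's 75th percentile was subtracted. Of 34844 gene names 22147 matched the RefSeq table, giving 22066 genes. All members were named, and genes of the further lists where they were at least 2-fold apart between genotypes. Tspan4, Tsc22d3, Cirbp and Lonrf3 were named after their values were seen. A probe well above background on 1 array of a pair was given a bound, against the higher of its own dim signal and the lowest signal well above background there. The number of arrays limits the precision. The limma fit took the 14057 genes measured on every array. The members, lists and tests were chosen with earlier results of these data known. Alternatives were normexp (offset 50), quantile and cyclic loess normalization, no scaling, 2 other centrings, the series table, no dim-probe filter, the brightest probe, a 1.5-fold threshold and, for limma, an intensity trend. Scripts were tested on simulated data. Fits were run in limma 3.58.1 under R 4.3.3, and the rest in Python 3.11.15 with matplotlib 3.10.9, pandas 2.3.3 and numpy 2.4.6.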

Additional observations from a re-analysis of the deposited data

Results flagged for a closer look

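Per1 and Timeless had log2 ratios of ASK1-deficient over WT that ran in opposite directions in the depots, each by more than 3 median SDs over replicate spots. Per1 was at −0.26 in iBAT and 0.34 in eWAT, and Timeless at 0.44 in iBAT and −0.23 in eWAT. The iBAT value of Per1 was only just past that limit. It was nearer 0 and under the limit with its brightest probe (−0.22) and with normexp (−0.14), and likewise with quantile normalization, cyclic loess, the detected-probe percentile and no scaling. With 1 array a condition, the difference between the depots was not tested.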

How the results depend on the processing

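No paired analysis was possible because each condition has 1 array, and for the same reason no array could be left out. The count of clock genes at least 2-fold apart between genotypes in iBAT was 1, and it was 0 with normexp and with quantile normalization, 2 without the filter on dim probes, 2 with the brightest probe of each gene and 3 at the 1.5-fold threshold. With cyclic loess, no scaling and the detected-probe percentile it was still 1, but that gene was Nr1d1, higher, in place of Bhlhe40, lower. In eWAT it was 0, and it was 1 each with cyclic loess, without scaling, with the percentile over probes detected on all arrays and without the filter on dim probes, and 7 at the 1.5-fold threshold. Between the depots of ASK1-deficient mice the count was 5, against 3 with normexp and 10 at the 1.5-fold threshold. Without scaling, the counts between those depots were 8 for the accessory list (4 with scaling) and 15 for the rhythmic output list (9 with scaling), and limma called 21 members for tissue, 4 higher and 17 lower, in place of 12, where it called 77.3% of all genes in place of 55.5%. That setting moved the median of all genes between the depots by −0.92 in WT and −0.77 in ASK1-deficient mice, whereas quantile, loess and the detected-probe percentile moved it by −0.11, −0.15 and −0.13 in WT. The detected-probe percentile moved the median between genotypes in iBAT by 0.10. In the limma fit for genotype 1 member, Bhlhe40, passed the adjustment with normexp, with median centring and with the series table, where 24, 139 and 128 of all genes did. Noct between the depots of WT mice turned to −0.38 with its brightest probe. The log2 ratios of Arntl, Bhlhe40, Nr1d1, Dbp, Per2, Arntl2 and Wee1 between genotypes kept their sign in 9 of 9 settings in both tissues. So did those of Per3, Nr1d2, Bhlhe41, Nfil3 and Noct. Per1, Ciart, Timeless, Hlf and Rorb, with opposite signs in the depots, kept each sign in 9 of 9 as well. A kept sign therefore does not set any of these genes apart. The size of a log2 ratio did not always hold: with normexp Arntl2 was at 0.28 in iBAT and 0.37 in eWAT, and Wee1 at 0.21 in iBAT. That of Arntl ranged from −0.66 to −0.47 in iBAT and from −1.08 to −0.90 in eWAT, and that of Nr1d1 from 0.87 to 1.06 and from 0.45 to 0.56. Cry2 ranged from 0.25 to 0.73 in iBAT and from −0.01 to 0.27 in eWAT, and Noct in iBAT from −1.25 to −0.40. Between 6 and 10 members had an unadjusted p under 0.05 for genotype over the 10 limma settings. The other 104 counts stayed within 1.5 times, but a count can hide a turned split. Between the depots of WT mice the 8 members called were 8 higher and 0 lower, against 2 and 9 without scaling, 7 and 1 with quantile, loess and the detected-probe percentile, and 6 and 2 with the brightest probe.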
